A study of Rattus norvegicus with 71 samples.

Results

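The Hox family was followed here in brain slices of newborn rats. Hox genes were taken as every row of the count table whose symbol is Hox, a cluster letter from a to d and a number, which gave 30 genes of the 17494 in the table. The family was selected on the measured values of these same animals, because its counts sat in a few animals and because Hoxb7 passed the threshold in the LDHA/B+CRMP1+STIP1 comparison. All Hox levels are therefore given as a description, and the p-values of Hox genes, adjusted or not, are no independent support for any difference. Hoxa9, Hoxa10, Hoxb1, Hoxb2, Hoxb6, Hoxc6, Hoxc13, Hoxd8 and Hoxd11 were not analysed here.

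Poly-A RNA was sequenced from 71 wild-type Sprague-Dawley rats at postnatal day (PND) 2, 1 coronal slice per brain, from 27 litters. Dams had been immunized before pregnancy with peptides of the named antigens in Freund's adjuvant, so that pups were exposed in utero to maternal autoantibody-related autism (MARA) antibodies against LDHA/B+CRMP1+STIP1 (25 animals), CRMP1+CRMP2 (8), CRMP1+GDA (6) or STIP1+NSE (8). The 24 control animals came from dams given adjuvant with saline, so every group carries the adjuvant. Sample titles fall into a MAR_C3 series of 43 animals, with all 5 groups, and a series titled IgG, FcRn or RNA of 28 animals, with 12 controls and 16 LDHA/B+CRMP1+STIP1 animals. The label of the slice names hippocampus with cortical and subcortical structures, whereas the series text names frontal cortex and hypothalamus. Library totals ran from 24880182 to 36234952 counts.

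Hox genes encode homeodomain transcription factors that give cells their position along the head to tail axis. Mammals carry them in clusters (A to D), and genes with the same number in different clusters (paralogues) are related by descent. The order of genes along a cluster mirrors the order of their anterior limits in the embryo. Low numbers reach into the hindbrain, higher numbers start further back in the spinal cord, and the forebrain and midbrain lie in front of all of them. Neurons of the hindbrain and spinal cord keep a Hox profile after birth.

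Rat clusters lie on rn7 chromosomes 4 (HoxA, minus strand), 10 (HoxB, plus strand), 7 (HoxC, plus strand) and 3 (HoxD, plus strand). Within the clusters lie genes of small RNAs of the miR-10 and miR-196 families, which serve here as landmarks along them. The miR-10 genes sit beside paralogues 4 and 5, among the Hox genes with counts, and the miR-196 genes beside paralogues 9 and 10, among those almost without. Their mature sequences from RefSeq (GRCr8 tables) are shown 5′ to 3′, with the seed, bases 2 to 8, in capitals.
rno-miR-10a-5p: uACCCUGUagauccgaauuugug
rno-miR-10b-5p: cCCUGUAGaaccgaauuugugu
rno-miR-196a-5p: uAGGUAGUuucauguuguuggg
rno-miR-196b-5p: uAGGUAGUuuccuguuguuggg
rno-miR-196c-5p: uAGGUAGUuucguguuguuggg
The 3 miR-196 sequences share the seed AGGUAGU, and in this table miR-10b starts 2 bases later than miR-10a, so that their listed seeds differ. Mature miRNAs are not captured by poly-A libraries, and the precursor rows at these places held 0 counts, apart from 2 counts of Mir10b.

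Hox counts were concentrated in few animals. Summed over the 30 genes, the Hox level was at or above 1 CPM (a count scaled to the library total) in 17 of 71 animals and exactly 0 counts in 19. The median was 0.166 CPM, which lies at the level that 6 counts, or 3 read pairs, give in these libraries (0.166 CPM in CRMP1+CRMP2 replicate 1, 0.241 CPM in LDHA/B+CRMP1+STIP1 replicate 4). The 3 highest animals held 61.4% of all Hox counts and the 9 highest held 95.2%. The values just inside the 1 CPM line were 1.54 and 1.60 CPM, and those just outside were 0.852 and 0.840 CPM.

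The highest summed level was 224 CPM in CRMP1+GDA replicate 4 (6253 Hox counts). LDHA/B+CRMP1+STIP1 replicate 6 followed with 166 CPM, CRMP1+CRMP2 replicate 5 with 116 CPM and Control replicate 14 with 90.0 CPM. These 4 animals belong to 4 different groups, and 1 of them is a control. CRMP1+CRMP2 replicate 4 had 55.2 CPM, LDHA/B+CRMP1+STIP1 replicate 5 had 50.9 CPM, CRMP1+GDA replicate 5 had 34.7 CPM, LDHA/B+CRMP1+STIP1 replicate 4 had 24.9 CPM and STIP1+NSE replicate 3 had 24.6 CPM. Below these, Control replicate 11 had 8.30 CPM, CRMP1+GDA replicate 2 had 6.79 CPM, Control replicate 10 had 3.01 CPM, CRMP1+CRMP2 replicate 7 had 2.58 CPM and LDHA/B+CRMP1+STIP1 replicate 3 had 2.06 CPM. The last 3 animals at or above 1 CPM were CRMP1+GDA replicate 1 (1.73), CRMP1+GDA replicate 6 (1.60) and LDHA/B+CRMP1+STIP1 replicate 8 (1.54 CPM). In bulk tissue, fewer cells that express a gene and less RNA per cell cannot be told apart.

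**Figure D1:**
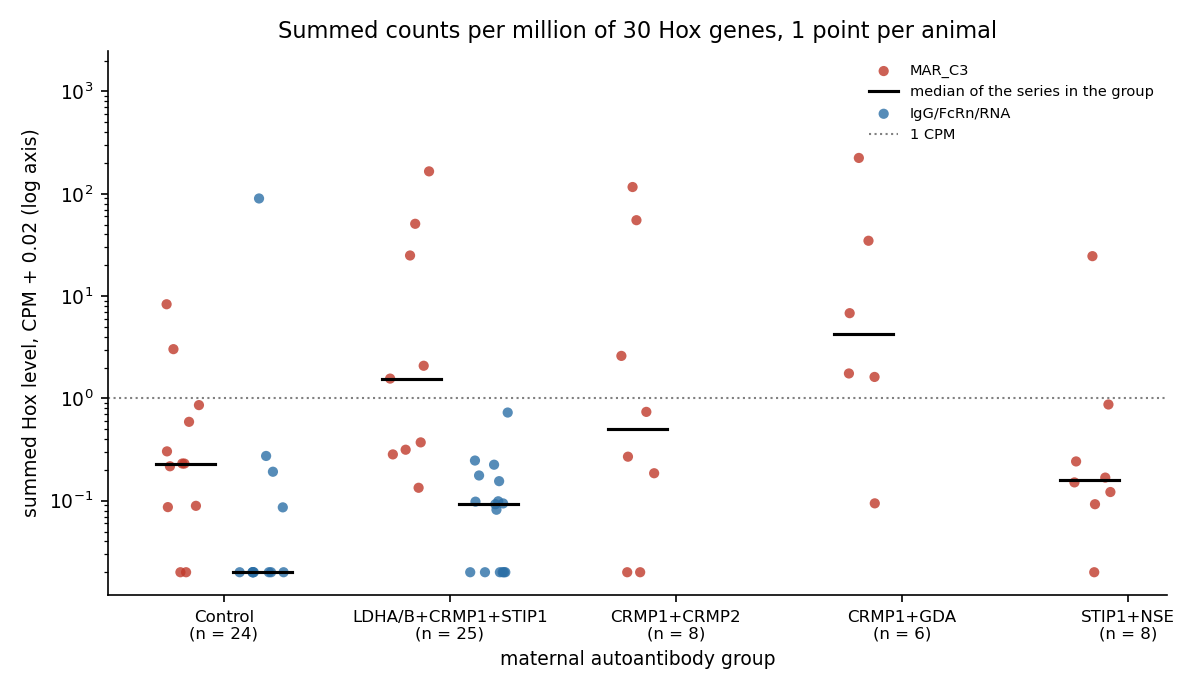
Summed Hox level of each of the 71 animals (CPM plus 0.02, log axis) by maternal autoantibody group, with MAR_C3 animals in red, IgG/FcRn/RNA animals in blue, a black bar at the median of each series in a group and a dotted line at 1 CPM. Every group has animals near 0 and at least 1 above 20 CPM, and a single blue point, Control replicate 14 at 90.0 CPM, lies above the line.

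By group, 5 of 6 CRMP1+GDA animals (median 4.26 CPM), 3 of 8 CRMP1+CRMP2 animals (0.484), 5 of 25 LDHA/B+CRMP1+STIP1 animals (0.135), 3 of 24 controls (0.0679) and 1 of 8 STIP1+NSE animals (0.140 CPM) were at or above 1 CPM. The ranges of all 5 groups overlapped from under 0.1 CPM to over 20 CPM. Title series and group overlap in the design, since the IgG/FcRn/RNA series holds only controls and LDHA/B+CRMP1+STIP1 animals. Within MAR_C3, the counts were 2 of 12 controls, 5 of 9 LDHA/B+CRMP1+STIP1, 3 of 8 CRMP1+CRMP2, 5 of 6 CRMP1+GDA and 1 of 8 STIP1+NSE animals. Within the IgG/FcRn/RNA series they were 1 of 12 controls and 0 of 16 LDHA/B+CRMP1+STIP1 animals. Counted by litter in the same order, these animals came from 1 of 4, 3 of 5, 3 of 4, 3 of 3 and 1 of 4 litters in MAR_C3. In the other series they came from 1 of 3 and 0 of 4. Under the same exposure, 5 of 9 animals in one title series and 0 of 16 in the other were thus at or above 1 CPM. The highest LDHA/B+CRMP1+STIP1 value in the IgG/FcRn/RNA series was 0.708 CPM.

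Littermates often differed. Of the 12 litters with an animal at or above 1 CPM, 8 also held an animal below it. In the litter of dam 9_8, 1 pup had 224 CPM and the other 0.0743 CPM. In the litter of dam 9_11 the values were 116 and 0.718 CPM, in that of dam 9_6 they were 55.2 and 0 CPM, and in that of dam IgG1 they were 90.0, 0.0661, 0 and 0 CPM. Pups of 1 exposure and 1 dam thus lay at opposite ends of the range. The litter of dam 9_14 (LDHA/B+CRMP1+STIP1) was the only one in which 2 pups exceeded 10 CPM, at 166 and 50.9 CPM. Of the 17 animals, 10 were males and 7 females.

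Which genes carried the counts depended on the position in the cluster. All 10 genes of paralogue groups 1 to 4, and 7 of the 8 genes of groups 5 to 8, reached at least 10 counts in an animal. None of the 12 genes of groups 9 to 13 did: their highest value was 6 counts, and Hoxa11, Hoxc11, Hoxc12 and Hoxd10 had 0 counts in all 71 animals. Over all animals, groups 1 to 4 held 47.8% of the Hox counts, groups 5 to 8 held 51.9% and groups 9 to 13 held 0.265%. HoxA held 39.3% and HoxB 38.7%, against 11.9% for HoxC and 10.1% for HoxD.

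Hoxa5 had the most counts, 5195 in total, in 20 animals and up to 55.6 CPM. Hoxa5 is needed for respiratory development and is used in the caudal hindbrain and cervical spinal cord. Its cluster B paralogue Hoxb5 followed with 4681 counts and up to 49.4 CPM. Among groups 1 to 4, Hoxc4 had 2416 counts in 23 animals, Hoxd3 1674 in 24, Hoxa4 1664 in 18, Hoxb3 1505 in 20, Hoxa3 1286 in 17, Hoxb4 1217 in 19, Hoxa2 720 in 22 and Hoxd4 636 in 21. Group 3 genes pattern the posterior hindbrain, and Hoxa2 has the most anterior limit of the family in the hindbrain. Further down, Hoxb8 had 1351 counts in 14 animals, Hoxc5 346 in 14, Hoxb7 280 in 10 and Hoxa6 241 in 11.

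The remaining named genes were low. Hoxa7 had 51 counts in 6 animals, and Hoxd1 had 34 counts in 9. Hoxb13 had 22 counts over 9 animals with at most 4 in any animal, and Hoxc9 had 12 over 5, none of them among the 17 animals at or above 1 CPM summed. Hoxc10 (8 counts), Hoxd9 (6), Hoxb9 (6), Hoxd13 (4), Hoxa13, Hoxd12 and Hoxc8 (2 each) had fewer still.

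**Figure D2:**
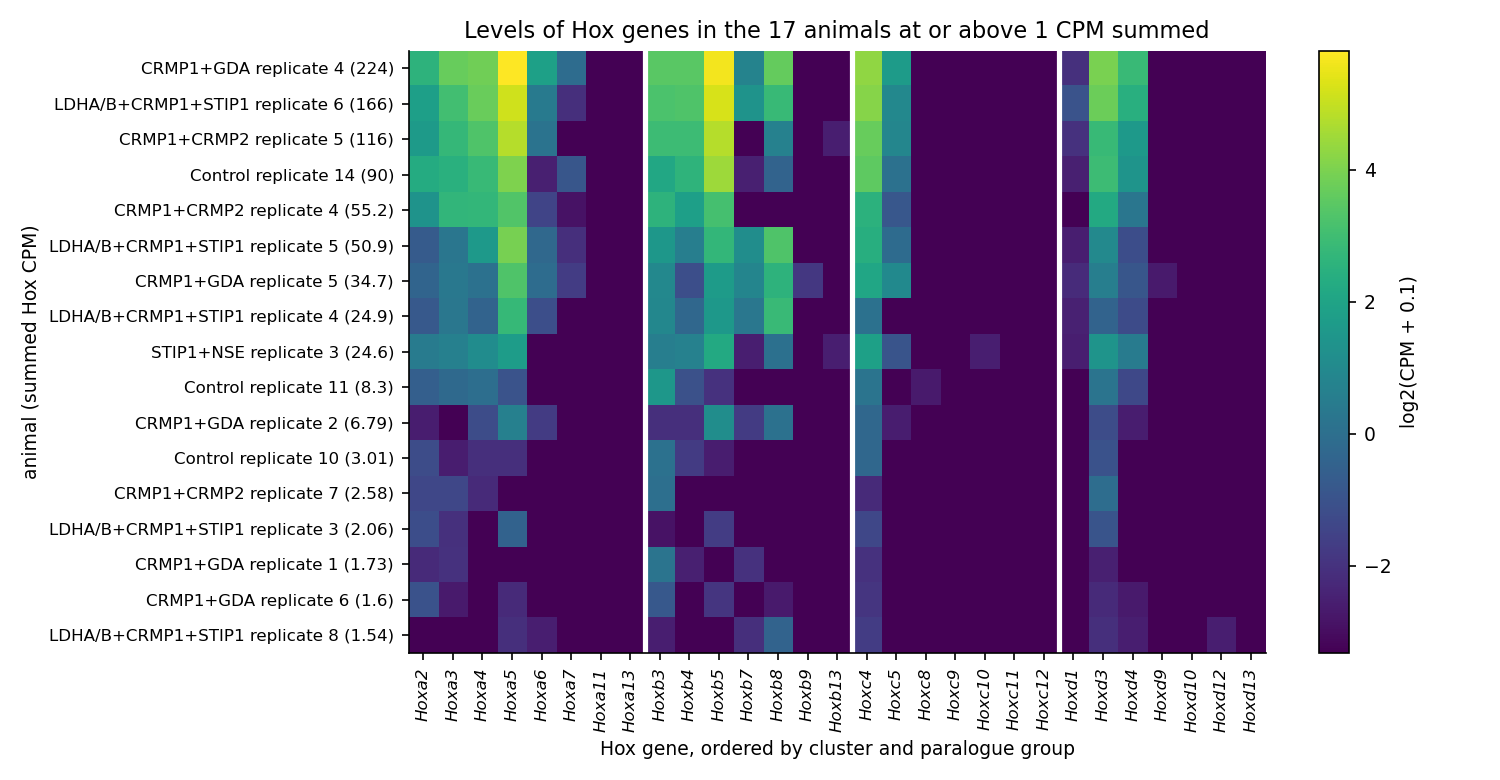
Levels of Hox genes, as log2(CPM + 0.1), in the 17 animals at or above 1 CPM summed, ordered from the highest (224 CPM) to the lowest (1.54 CPM), with genes ordered by cluster and paralogue number and white lines between clusters. Color stops between Hoxb8 and Hoxb9, after Hoxc5 in HoxC and after Hoxd4 in HoxD, and the columns of groups 9 to 13 are dark in nearly all rows.

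On each chromosome, genes with counts gave way to genes almost without, and the edge was sharp in HoxB. In CRMP1+GDA replicate 4, Hoxb8 (chr10, start 81248887) had 350 counts and Hoxb9, whose nearest end lies 8068 bases away (start 81237312), had 0. Per length, as RPKM (CPM divided by the exon length in kilobases), Hoxb8 was at 12.9 and 6 counts of Hoxb9, taken as 3 read pairs and as the limit of a count of 0, would give 0.229, so Hoxb8 was at least 56.2-fold higher. Over all 71 animals the totals were 1351 counts for Hoxb8 and 6 for Hoxb9, all 6 in CRMP1+GDA replicate 5. In the same animal as above, Hoxd4 had 198 counts and Hoxd9, 11708 bases away, had 0, a level at least 22.4-fold lower per length. Hoxc5 had 86 counts there and Hoxc8, 20486 bases away, had 0, at least 6.43-fold lower per length. In HoxA the counts of this animal fell in steps, with 1552 for Hoxa5, 99 for Hoxa6 and 23 for Hoxa7. Hoxa11, 24897 bases from Hoxa7, had 0, at least 9.49-fold lower per length than Hoxa7. The Hox genes that lie between the members of these last 3 pairs were not analysed here, so the place of the edge is known best in HoxB.

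Animals also differed in the mix of Hox genes they carried. Shares were computed for the 11 animals with at least 100 Hox counts, with 95% Wilson intervals on halved counts, since most low counts were even and the mates of a read pair were probably counted separately. The intervals cover counting error only. Hoxb8 made up 28.5% of Hox counts in LDHA/B+CRMP1+STIP1 replicate 4 (interval 23.9 to 33.9), 19.02% in replicate 5 of the same group (16.3 to 21.9) and 16.7% in CRMP1+GDA replicate 5 (13.8 to 19.9). In these 3 animals Hoxb8 was also the highest Hox gene per length, at 7.31, 9.94 and 5.97 RPKM. In contrast, Hoxb8 made up 5.60% in CRMP1+GDA replicate 4 (4.84 to 6.45), 4.20% in LDHA/B+CRMP1+STIP1 replicate 6 (3.49 to 5.09), 1.30% in CRMP1+CRMP2 replicate 5 (0.849 to 1.97) and 0.731% in Control replicate 14 (0.385 to 1.38). CRMP1+CRMP2 replicate 4 had 0 counts of Hoxb8 among 1472 Hox counts, which allows a share of up to 0.406%. The mix thus differed by more than counting error between animals with at least 1160 Hox counts, and between the littermates LDHA/B+CRMP1+STIP1 replicates 5 and 6.

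In 7 of the 11 animals Hoxb5 was the highest Hox gene per length, up to 32.2 RPKM in CRMP1+GDA replicate 4. Hoxb3 was highest in Control replicate 11 (1.45 RPKM), where groups 1 to 4 made up 92.6% of Hox counts (86.8 to 95.7), the largest share of the 11. The share of groups 1 to 4 was 26.5% in CRMP1+GDA replicate 2 (18.7 to 35.4) and 27.1% in LDHA/B+CRMP1+STIP1 replicate 4 (22.4 to 32.2), and its median was 48.4%. The high Hox levels therefore did not come with 1 fixed profile: some animals held mainly genes of groups 1 to 5, others also much of Hoxb8. Hoxb7 did not pass 4.83% of Hox counts in any of the 11.

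**Figure D3:**
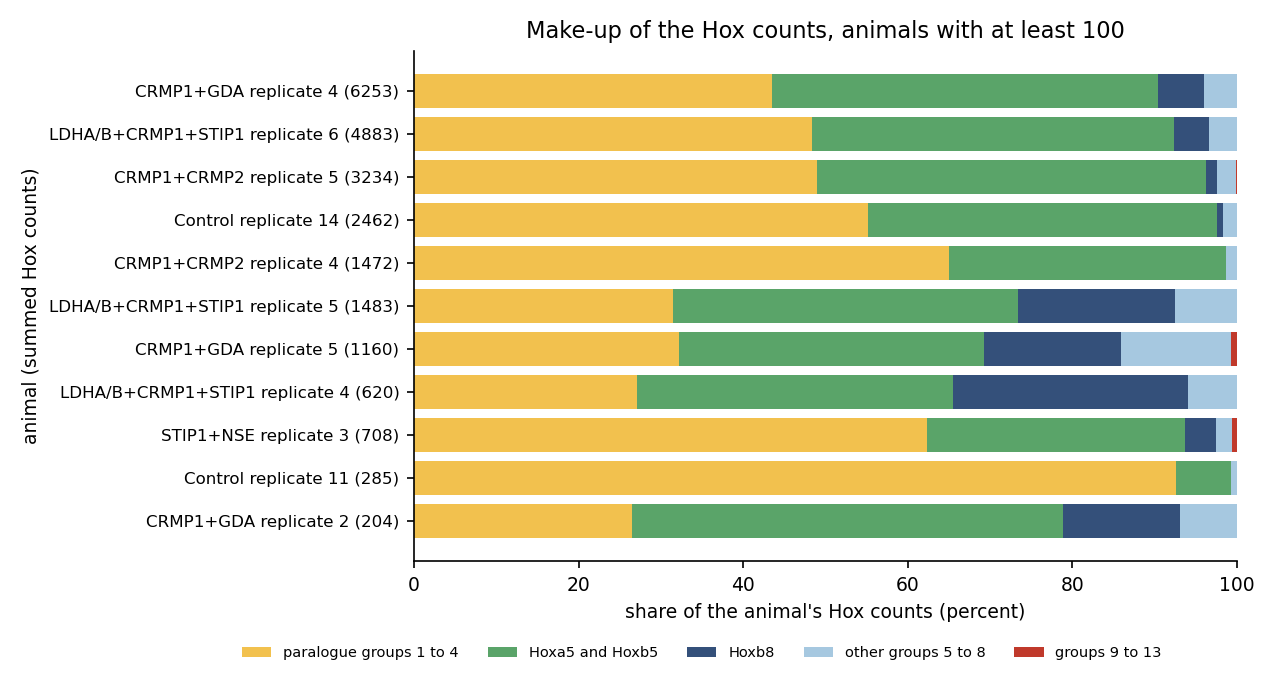
Percent of each animal's Hox counts held by paralogue groups 1 to 4, by Hoxa5 with Hoxb5, by Hoxb8, by the other genes of groups 5 to 8 and by groups 9 to 13, in the 11 animals with at least 100 Hox counts (total in brackets). Hoxb8 (dark blue) ranges from 0 to 28.5%, and groups 9 to 13 (red) do not pass 0.690%.

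Noncoding genes of the clusters had their highest counts in animals with a high Hox level. Hotairm1, at the anterior end of HoxA, had 87 counts (up to 23, in CRMP1+GDA replicate 4), Hoxb5os 54 (up to 25) and Hoxaas3 32 (up to 12), these also with their maximum in that animal. Hoxa11-as, in the posterior end of HoxA, had 3 counts. Hoxaas3 shares 22 exon bases with Hoxa3 on the other strand, and the strand setting of the counting is not given in the sources used here, so reads in that stretch cannot be told apart. Of the coding genes outside the clusters, Evx1, a homeobox gene of spinal and hindbrain interneurons next to Hoxa13, had 211 counts, with its maximum (32) in CRMP1+CRMP2 replicate 3, an animal with 0 Hox counts. Skap2 and Hibadh, the other neighbours of HoxA, were measured in every animal (3.12 to 13.2 CPM and 20.4 to 33.8 CPM), as were Mtx2 and Lnpk beside HoxD (25.3 to 59.3 CPM and 33.6 to 48.5 CPM).

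Promoter sequence was available for 15 of the 30 genes (RefSeq starts, GRCr8), and the 250 bases before the start were searched on both strands for 4 short motifs. AGGTCA, the core recognized by retinoic acid receptors, which set Hox limits in the embryo, occurred in Hoxc4, Hoxd4 and Hoxd10, against 14.1% of all 33469 promoters. TGATTNAT, bound by Pbx with Hox proteins, occurred in Hoxa2 only (2.82% of all), TGACAG, bound by Meis and Pknox proteins, in Hoxa2, Hoxa3 and Hoxa4 (15.8%) and TATAAA in Hoxd13 only (12.9%). A stretch of 100 bases around the match is shown for Hoxa2, Hoxc4, Hoxd4 and Hoxd10, because they set genes with counts beside Hoxd10, a gene with none, with the match in capitals on the gene's strand, 5′ to 3′.
Hoxa2, chr4:82595753-82595852, minus strand: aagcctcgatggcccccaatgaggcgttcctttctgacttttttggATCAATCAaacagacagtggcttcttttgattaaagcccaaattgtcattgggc
Hoxc4, chr7:136048959-136049058, plus strand: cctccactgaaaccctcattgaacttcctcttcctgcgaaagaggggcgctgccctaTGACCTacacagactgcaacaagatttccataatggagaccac
Hoxd4, chr3:80021741-80021840, plus strand: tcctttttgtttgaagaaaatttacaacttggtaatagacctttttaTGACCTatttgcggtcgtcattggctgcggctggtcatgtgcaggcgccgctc
Hoxd10, chr3:80001842-80001941, plus strand: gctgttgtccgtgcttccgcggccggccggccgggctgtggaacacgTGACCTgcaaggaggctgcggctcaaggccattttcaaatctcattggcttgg
The AGGTCA match thus stood before Hoxd10, with 0 counts, as well as before Hoxc4 and Hoxd4, and all 4 matches lie on the opposite strand. The matches are letters in these windows, not measured sites.

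Other genes followed the summed Hox level from animal to animal. Among 12802 other genes, the 10 with the highest Pearson's r over 71 animals, on the log2(CPM + 0.1) scale, were Slc6a5 (r = 0.88, Spearman's rho = 0.64), Lbx1 (0.86, 0.51), Pax2 (0.85, 0.58), Mobp (0.79, 0.46), Pax8 (0.79, 0.53), Evx1 (0.73, 0.52), Lmx1b (0.72, 0.63), Pou4f2 (0.69, 0.55), Drgx (0.69, 0.49) and Glra1 (0.68, 0.59). The median r of all genes was 0.05 and its 95th percentile 0.45. These correlations describe libraries in which most Hox values are near 0, and they share a denominator. Slc6a5, the glycine transporter of inhibitory neurons in the hindbrain and spinal cord, was at 77.0 CPM in CRMP1+GDA replicate 4, 52.3 in LDHA/B+CRMP1+STIP1 replicate 6, 39.9 in CRMP1+CRMP2 replicate 5 and 12.3 CPM in Control replicate 14, against a median of 0.924 CPM. Its r was 0.84 without the 2 animals farthest from the median Hox level, 0.89 within MAR_C3 (n = 43) and 0.69 within the IgG/FcRn/RNA series (n = 28). In the latter series 1 animal, Control replicate 14, was at or above 1 CPM and 14 had 0 Hox counts. Any r within it therefore depends heavily on that library. Lbx1, a homeobox gene of dorsal hindbrain and spinal interneurons, had 0 counts in 57 animals and up to 6.38 CPM, in CRMP1+GDA replicate 4. Glra1, a glycine receptor subunit, reached 5.09 CPM in that animal.

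**Figure D4:**
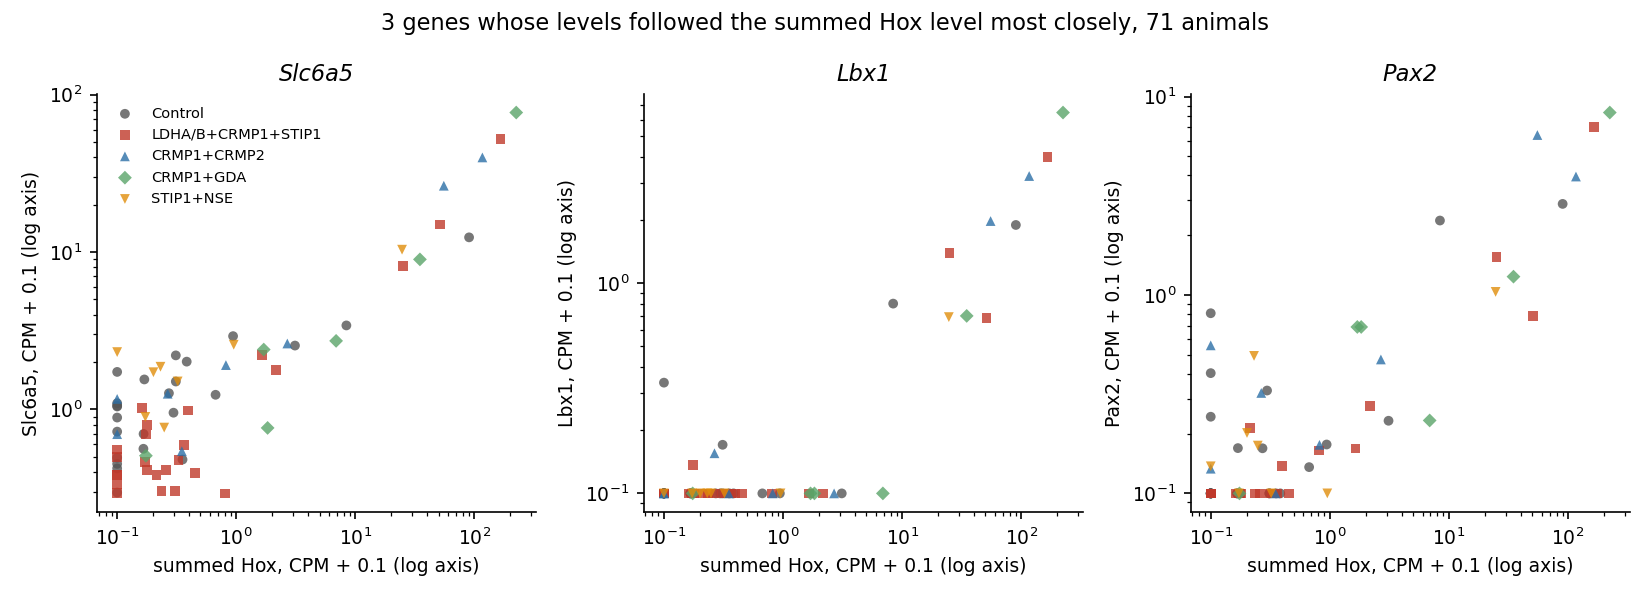
Levels of Slc6a5, Lbx1 and Pax2 against the summed Hox level in 71 animals (CPM plus 0.1 on log axes), with a symbol for each group. Points of all 5 groups lie along the same rise at the right of each panel, up to CRMP1+GDA replicate 4 (224 CPM Hox, 77.0 CPM Slc6a5), and most animals lie at the left edge.

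For Hoxa5, the Hox gene with the highest CPM in any animal (per length, Hoxb5 was highest), the nearest genes included Lbx1 (r = 0.92), Mobp (0.87), Slc6a5 (0.86), Pax2 (0.84), Pax8 (0.80), Evx1 (0.79), Mbp (0.72), Drgx (0.69) and Nefh (0.65). Mobp and Mbp encode myelin proteins, and Nefh a neurofilament of large axons. Mbp ranged from 34.2 to 122 CPM and was highest in CRMP1+GDA replicate 4. Both lists therefore mix genes of hindbrain and spinal neurons with genes of myelin.

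Marker lists of other tissues and brain regions were summed in every animal. Of 16 lists, that of hindbrain and spinal cord neurons (9 of 11 genes in the table) had the highest r with summed Hox, 0.69 (rho 0.62, 0.61 within MAR_C3 and 0.68 within the other series, where 1 of 28 animals was at or above 1 CPM). It ranged from 1.10 to 171 CPM with a median of 7.14 CPM and includes Slc6a5 and Lbx1. By group it ran from 2.30 to 30.3 CPM in controls, 1.10 to 171 in LDHA/B+CRMP1+STIP1, 3.62 to 72.7 in CRMP1+CRMP2, 7.14 to 132 in CRMP1+GDA and 4.10 to 25.8 CPM in STIP1+NSE. Midbrain and isthmus genes, among them Pax2 and Pax8, had r = 0.67 and cerebellum genes 0.56. Forebrain genes had -0.57 (-0.46 within MAR_C3 and -0.35 within the other series). Members of a list differed. Single genes ran from -0.05 (Fgf8) to 0.85 (Pax2) for midbrain and from 0.29 (Lhx4) to 0.88 (Slc6a5) for hindbrain. They ran from -0.33 (Gabra6) to 0.64 (Barhl1) for cerebellum and from -0.58 (Tbr1) to 0.43 (Prox1) for forebrain. Most of the cerebellum sum was Cbln1 (median 60.3 CPM, sum 64.7 CPM). In the hindbrain list, Slc6a4 had the highest median (3.55 CPM) and r = 0.46 (0.29 within MAR_C3 and 0.10 within the other series). Slc6a4 was highest, at 38.4 CPM, in CRMP1+CRMP2 replicate 3, an animal with 0 Hox counts. The other 12 lists, for motor neurons, sensory ganglia, choroid plexus, pineal, meninges, muscle, skin, cartilage and bone, erythroid cells, leukocytes, kidney and liver, lay between -0.07 (muscle) and 0.42 (erythroid cells). The part of these tissues in the Hox levels was not tested.

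Forebrain genes were present in every library, which does not tell the level of the slice apart, since hippocampus, frontal cortex and hypothalamus all belong to the forebrain. Their sum ran from 565 to 1546 CPM (median 992 CPM). The lowest value was that of CRMP1+GDA replicate 4, the animal with the highest Hox level. In LDHA/B+CRMP1+STIP1 replicate 6, second in Hox level, the sum was 957 CPM. This second animal alone had 67.9 CPM of Phox2a, a homeobox gene of noradrenergic and cranial motor neurons, which was at 0 counts in 49 animals. Mnx1, the defining gene of spinal motor neurons, was at 0 counts in 64 of 71 animals and did not pass 0.161 CPM. The 6 genes of the motor neuron list differed, with r from 0.02 (Isl1) to 0.61 (Prph). Prph was highest, at 44.5 CPM, in LDHA/B+CRMP1+STIP1 replicate 6.

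The 4 autoantibody patterns were each compared with the same 24 controls, which the comparisons share. Genes with over 1 CPM in at least 2 animals of a comparison were fitted with edgeR's quasi-likelihood test and 1 surrogate variable, with Benjamini-Hochberg adjustment and a threshold of FDR 0.1. That filter let 10 to 13 of the 30 Hox genes into these fits, and a gene could enter through the animals in which it was high. In CRMP1+CRMP2, 0 of 10 Hox genes tested passed, against 11.4% of all genes tested, and 0 had an unadjusted p under 0.05, against 24.4% (median log2 fold change 0.46, against 0.01 over all genes). In CRMP1+GDA, 0 of 13 passed, against 0% of all genes, although all 13 were higher (median log2 fold change 2.18, 3 of 13 at an unadjusted p under 0.05, against 3.65% of all genes). In STIP1+NSE, 0 of 10 passed, against 0.0474% of all genes (median -0.39), and none had an unadjusted p under 0.05, against 3.19%. Signs and counts depended on the test, on the covariates and on the samples used. In DESeq2 with the surrogate variable, 10 of 10 Hox genes were lower in CRMP1+CRMP2 (median log2 fold change -1.34). There, 9 of 13 were lower in CRMP1+GDA (median -0.77) and 7 of 10 in STIP1+NSE (median -0.47). With title series and sex in place of the surrogate variable, 7 of 10 Hox genes had an unadjusted p under 0.05 in CRMP1+CRMP2 (20.1% of all genes), 13 of 13 in CRMP1+GDA (4.4%) and 0 of 10 in STIP1+NSE (2.16%). Within MAR_C3 alone, with sex as covariate, they were 9 of 10 in CRMP1+CRMP2 (20% of all genes), 9 of 9 in CRMP1+GDA (5.10%) and 0 of 3 in STIP1+NSE (2.66%). With counts summed per litter they were 5 of 9 (11.2%), 8 of 10 (1.17%) and 0 of 6 (1.25%). Hox genes were high together in the same few animals, so these are not counts of independent genes and support no difference. The median log2 fold change within MAR_C3 in edgeR was 3.39 in CRMP1+CRMP2, 6.50 in CRMP1+GDA and 1.43 in STIP1+NSE. The last was of the opposite sign to the edgeR fit with the surrogate variable.

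In LDHA/B+CRMP1+STIP1, 1 of 12 Hox genes tested passed, against 0.0157% of all genes, and 2 had an unadjusted p under 0.05, against 7.17%. This is the comparison on which the family was picked. The gene was Hoxb7, with a log2 fold change of 5.51 ± 0.75 (SE) and an edgeR adjusted p of 9.08e-05. Hoxb7 had counts in 4 of 25 LDHA/B+CRMP1+STIP1 animals: 2.44 CPM in replicate 6, 2.13 in replicate 5, 1.12 in replicate 4 and 0.137 CPM in replicate 8. All 4 belong to MAR_C3, the other 21 animals of the group had 0 counts, and 1 of 24 controls had any (0.0731 CPM in replicate 14). The 2 groups overlapped at 0. Hoxb8 had a log2 fold change of 4.35 ± 0.96 and an edgeR adjusted p of 0.105. The median over the 12 Hox genes was -0.37, with 9 of them lower, among them Hoxb5 (-1.31 ± 1.05, edgeR adjusted p = 0.857) and Hoxa5 (-0.21 ± 0.88, edgeR adjusted p = 0.981). The difference between genes was not tested. Within MAR_C3 the median was 4.12, with 0 of 10 lower and 9 of 10 at an unadjusted p under 0.05, against 5.62% of all genes. The Hoxb7 call was lost in DESeq2 (adjusted p = 0.913, log2 fold change 2.51), with limma voom and litter as a random effect (adjusted p = 1, log2 fold change 1.46), within MAR_C3 alone (edgeR adjusted p = 0.872, log2 fold change 7.21) and without the control litter of dam 9_25 (edgeR adjusted p = 0.142, log2 fold change 4.48), and without the litter of dam 9_14, or with counts summed per litter, no Hox gene passed.

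The number of Hox genes that passed changed with a single control litter in 2 of the 4 patterns. Without the control litter of dam IgG1, which holds Control replicate 14, 10 of 10 Hox genes tested passed in LDHA/B+CRMP1+STIP1 in place of 1, against 30 of 12679 genes tested (Hoxa3, Hoxa4, Hoxa5, Hoxb3, Hoxb4, Hoxb5, Hoxb7, Hoxb8, Hoxc4 and Hoxd3). In CRMP1+CRMP2, 10 of 10 passed in place of 0, against 9.14% of all genes (Hoxa2, Hoxa3, Hoxa4, Hoxa5, Hoxb3, Hoxb4, Hoxb5, Hoxc4, Hoxd3 and Hoxd4). CRMP1+GDA (9 tested) and STIP1+NSE (3 tested) stayed at 0. In CRMP1+GDA, 9 of 9 then had an unadjusted edgeR p under 0.05, against 3.73% of all genes, and the median log2 fold change was 5.02. In STIP1+NSE these values were 2 of 3, against 3.52%, and 1.90, where the fit with all controls had a median of -0.39. These counts are not of independent genes. Control replicate 14 had 21.7 CPM of Hoxb5 and 16.5 of Hoxa5 but 0.658 of Hoxb8 and 0.0731 CPM of Hoxb7. With title series and sex as covariates in place of the surrogate variable, 3 of 10 Hox genes tested passed in CRMP1+CRMP2 (Hoxa5, Hoxb4 and Hoxb5), against 3.87% of all genes. In CRMP1+GDA, 5 of 13 passed (Hoxa5, Hoxb5, Hoxb7, Hoxb8 and Hoxc5), against 5 of all 12641 genes tested.

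**Figure D5:**
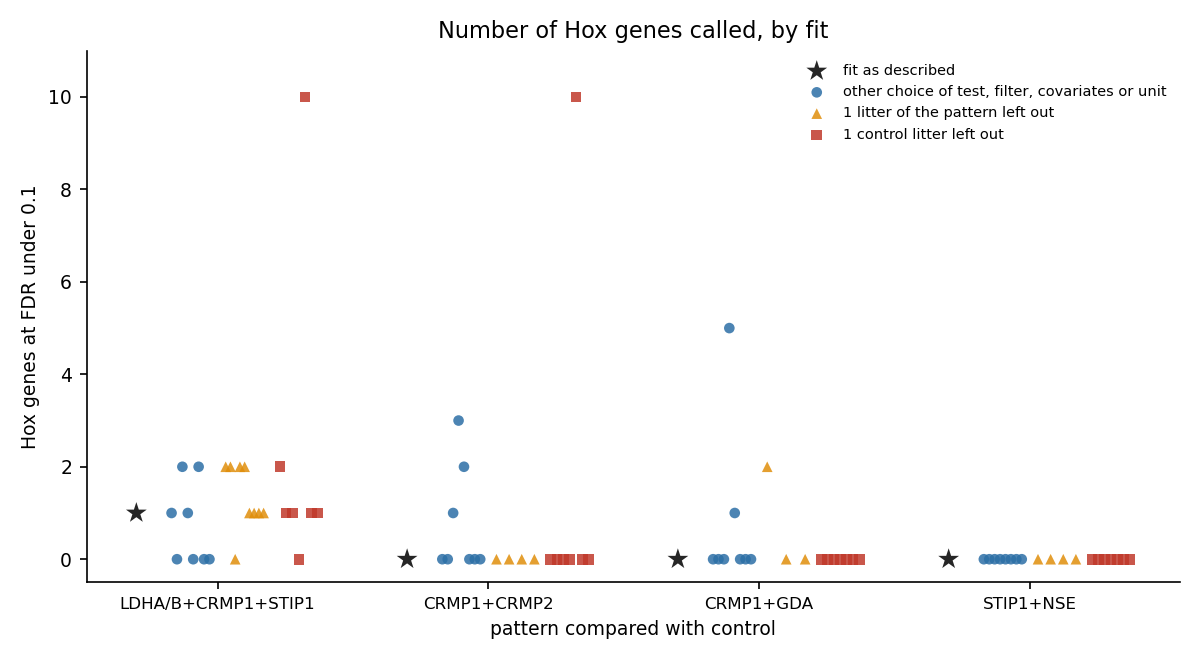
Number of Hox genes at FDR under 0.1 in each pattern against control, in the fit as described (star), with other choices of test, filter, covariates, samples or unit (blue), with 1 litter of the pattern left out (orange) and with 1 control litter left out (red squares). Both squares at 10 are the fits without the control litter of dam IgG1, and STIP1+NSE stays at 0 in every fit run.

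Sex and title series were compared in the same way. In females against males (all 71 animals, group and title series as covariates), 0 of 14 Hox genes passed, against 0.0624% of all genes, and none had an unadjusted p under 0.05 in edgeR, against 4.69% of all genes. Of the 14, 13 were lower in females (median log2 fold change -1.46, against 0 over all genes). In DESeq2 1 passed, Hoxd4, lower in females, and 12 of 14 had an unadjusted p under 0.05, against 5.21% of all genes. Within the 22 litters that hold both sexes (58 animals), with litter as a block in edgeR, 0 of 14 passed, 12 were lower in females (median -1.56) and 1 had an unadjusted p under 0.05, against 7.41% of all genes. Summed Hox medians were 0.133 CPM in 36 females and 0.197 CPM in 35 males, both near the level that 6 counts give. The means were 12.0 CPM in females and 11.2 CPM in males, and the 2 highest animals (224 and 166 CPM) were females. In controls of MAR_C3 against controls of the IgG/FcRn/RNA series, 0 of 3 Hox genes tested passed, against 41.5% of all genes, and again none had an unadjusted p under 0.05, against 43.5%. The median of MAR_C3 controls was 0.211 CPM and that of the other series 0 CPM, while the largest values, 8.30 and 90.0 CPM, were in the opposite order.

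Hox proteins bind DNA together with Pbx, Meis and Pknox proteins, and Hox genes are set by retinoic acid signalling and by chromatin regulators. Of 27 listed cofactors and regulators, 24 were in the table and 17 were at or above 1 CPM in every animal, so partners of Hox proteins were present whether or not Hox genes were. Meis2 ran from 70.3 to 474 CPM. Across animals, r with summed Hox was 0.53 for Pbx4 and -0.43 for the Polycomb gene Bmi1. Within MAR_C3 and within the other series it was 0.41 and 0.44 for Pbx4, and -0.18 in both for Bmi1. Of the 21 fitted, 3 were higher in CRMP1+CRMP2 at FDR 0.1, against the same 11.4% of all genes, among them the retinoic acid receptor Rarg (log2 fold change 0.38 ± 0.11, edgeR adjusted p = 0.0339) and the Polycomb methyltransferase Ezh2 (0.21 ± 0.08, edgeR adjusted p = 0.0959). Rarg passed in 14 of 19 alternatives and Ezh2 in 8, and the calls over all genes fell to 0.324% without the litter of dam 9_6, 0.260% with litter as a random effect and 0% with counts summed per litter, where 0 of 21 cofactors passed in each. None of the 21 passed in the other 3 patterns or between the sexes. Between the title series of controls 15 of 21 passed, against 41.5% of all genes, with Rarb (-2.54 ± 0.25) and Meis2 (-1.56 ± 0.11) lower and Gbx2 (2.77 ± 0.45 on the log2 scale), a gene of the anterior hindbrain and of the thalamus, higher in MAR_C3. Cdx2 and Cdx4, regulators of posterior Hox genes in the embryo, did not reach 1 CPM in any animal.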

How the data were processed

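Reads of poly-A libraries were aligned by the authors to rat rn7 with STAR 2.5.4b and counted per gene with featureCounts, and the deposited values are whole-number counts per gene without normalization. The other column used, deposited beside the counts, is the exon length of each gene. Groups, litters and sex come from the labels, and title series from the sample titles. The authors' methods name 2 batches. Of all counts from 1 to 9, 74.5% were even (92.7% among Hox genes).

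CPM was computed from library totals and RPKM from exon length. Fits used edgeR 4.0.16 (TMM, trended dispersion, robust quasi-likelihood test), with 1 surrogate variable from sva 3.50.0 for the patterns. DESeq2 1.42.0, limma 3.58.1 (voom), other filters, covariates and units and left-out litters were alternatives, and littermates of both sexes, who share a dam per the labels, were paired in an added fit. The edgeR fit, with sex as covariate and no surrogate variable, and the ranking by r were run on simulated data. Genes changed there were well above the low counts of most Hox genes, which those runs did not cover. Animals are the replicates, and littermates share a dam, so p-values over animals can be too small. The Hox members, marker lists and cofactor list were chosen with earlier results of these data known. Named are Hox genes with at least 10 counts in an animal, animals at or above 1 CPM, the 10 genes of highest r and the listed cofactors. The cluster neighbours and the marker genes given singly, such as Mnx1, Phox2a and Prph, were picked once their values were known. Some genes that this rule covers are not reported here, though counts and sums include them. No 2 libraries agreed within counting noise (lowest chi-square per gene 5.62).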

Additional observations from a re-analysis of the deposited data

Results flagged for a closer look

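In the groups of 4 to 10 animals, the highest animal was tested for its gap to the next one relative to the range of the group, for summed Hox, Hoxa5, Hoxb5, Hoxc4 and Hoxb8 in 3 groups. By chance the 95% critical value is passed in about 1 in 20 groups, a rate that does not apply here, since the family was selected because its counts sat in few animals. The gaps are therefore a description, and those of a group concern the same animal. In CRMP1+CRMP2 (n = 8), replicate 5 stood apart with 116 CPM summed Hox (next 55.2), 27.6 CPM Hoxa5 (next 9.97), 27.5 CPM Hoxb5 (next 8.54), 12.7 CPM Hoxc4 (next 5.66) and 1.51 CPM Hoxb8 (next 0). In CRMP1+GDA (n = 6), replicate 4 stood apart with 224 CPM summed Hox (next 34.7), 55.6 CPM Hoxa5 (next 9.79), 49.4 CPM Hoxb5 (next 3.08) and 19.4 CPM Hoxc4 (next 4.13), but not in Hoxb8. In STIP1+NSE (n = 8), replicate 3 stood apart with 24.6 CPM summed Hox (next 0.852), 3.19 CPM Hoxa5 (next 0.0741), 4.51 CPM Hoxb5 (next 0.0740), 3.54 CPM Hoxc4 (next 0.155) and 0.936 CPM Hoxb8 (next 0.0741). Hindbrain and spinal cord marker genes summed to 72.7, 132 and 25.8 CPM in these 3 animals, against group medians of 25.8, 19.4 and 21.1 CPM. Slc6a4 alone, which was highest in an animal with 0 Hox counts, held 18.3, 25.8 and 8.67 CPM of the 3 sums. The part of the marker genes in the Hox levels was not tested.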

How the results depend on the processing

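The numbers of Hox genes called at FDR 0.1 rested on few animals and on the choice of covariates, and the cause of each shift was not tested. STIP1+NSE stayed at 0 under all 19 alternatives. With CRMP1+CRMP2, 0 calls became 1 with genes of at least 1 count in 2 samples, 3 with title series and sex as covariates and 2 within MAR_C3, and leaving out 1 litter gave 0 to 10. Over all genes, the fits with the lower filter, title series and sex, and MAR_C3 alone called 7.19%, 3.87% and 1.01%. With CRMP1+GDA, 0 calls became 5 with title series and sex and 1 within MAR_C3, and leaving out 1 litter gave 0 to 2 (2 without dam 9_3, Hoxb7 and Hoxb8). Over all genes, the fits with title series and sex, within MAR_C3 and without dam 9_3 called 5 of 12641, 1 of 12538 and 4 of 12630. With LDHA/B+CRMP1+STIP1, 1 call became 0 with DESeq2, within MAR_C3, with counts summed per litter and with limma voom, and 2 with the lower count filter and with halved counts, and leaving out 1 litter gave 0 to 10. Over all genes, the lower filter called 13 of 15429 and halved counts 3 of 12715. The Hoxb7 log2 fold change in this pattern ran from 1.46 to 7.21 over the 22 of 24 alternatives in which it could be fitted and stayed past the threshold in 18. Without the litter of dam 9_14 and with counts summed per litter Hoxb7 did not pass the filter on low values. Within the IgG/FcRn/RNA series no Hox gene passed the filter, so that alternative has no value. Females against males gave 0 and with DESeq2 1 (9 of 12816 over all genes). The title series of controls gave 0, with the lower count filter 4 (5486 of 15154 over all genes) and without 1 litter 0 to 1. The 17 animals at or above 1 CPM were 22 at 0.5 CPM, 14 at 2 CPM and 17 with TMM-scaled CPM, and the 17 Hox genes with 10 counts were 18, 15 and 15 with 5 counts, 20 counts and halved counts. Leaving out control litters was added after seeing the data. The fit with litter as replicate block for females against males was also added then and gave 0. No paired analysis was possible between exposure groups because the replicate numbers only follow accession order and each litter has 1 exposure. Depth sets a floor of 0.166 to 0.241 CPM (6 counts, or 3 read pairs).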
